A study of Mus musculus with 24 samples.

Results

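Amino acid carriers move amino acids across the plasma membrane and the membranes of organelles. The genes described here are those of the solute carrier families SLC1, SLC3, SLC7, SLC36, SLC38 and SLC43, taken as every row of the gene table whose name starts with Slc1a, Slc3a, Slc7a, Slc36a, Slc38a or Slc43a followed by a number. There were 42 such genes among 55416 rows, chosen by name and not by value, with earlier results of these data known. Of these, 34 had enough counts to be tested and 8 did not.

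Poly(A) RNA was sequenced from the cerebellum of 24 C57BL/6J mouse pups, 12 in the Ethanol and 12 in the Vehicle group. Ethanol animals received ethanol at 4 g/kg/day in intralipid by intragastric gavage from postnatal day 4 (P4), and Vehicle animals received the same lipid emulsion with water in its place. Every animal of both groups was therefore gavaged with intralipid, was perfused, and gave its cerebellum on P5 or P6, a day after its last dose. The question was how gene expression in the cerebellum differs soon after ethanol exposure begins, at an age used in mice to model the third trimester of human pregnancy. The labels used here give treatment and an animal number and not age, sex or litter, so values are for 12 against 12 animals with both ages and sexes together. Brain is the tissue given by the labels, and cerebellum the one given by the study's methods. The summed CPM (counts scaled to equal library size) of 7 Purkinje cell markers lay between 1320 and 1742 in every library. Most of that sum came from Car8, Calb1, Itpr1 and Pcp4 (means of 459, 384, 377 and 224 CPM in Vehicle animals), where Pcp2 had 77.9. The sum does not show by itself that the tissue was cerebellum.

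Total counts per library ranged from 26982510 to 38804909, and counting error was 2.79% of the level for the median tested carrier gene. Ttr, the transthyretin gene of choroid plexus, was at 3.57 CPM or less in 2 Ethanol and 2 Vehicle libraries and at 322 CPM or more in the others, and each count of called carrier genes below is also given without those 4 libraries. Sorted by number, the animals form 6 runs of 4, with 2 Ethanol and 2 Vehicle animals in each. The study's methods describe a male and a female of each treatment taken from each of 6 litters, with different litters for each age. Whether a run is such a litter is not given by the labels. Differences between runs may therefore hold differences of litter, age or number of doses, which cannot be told apart here. The main test leaves the runs out, and a fit with the runs as a block is given below.

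As background, carriers differ in what drives them. The SLC1 glutamate carriers use the sodium gradient to clear glutamate from the extracellular space, and in cerebellum the Bergmann glia and other astrocytes carry most of this uptake. The light chains of SLC7 are exchangers that reach the membrane only when bound to a heavy chain of SLC3, while the cationic carriers of SLC7 take up arginine and lysine without one. The SLC38 carriers take up glutamine and other neutral amino acids with sodium, and several sit on the lysosome. When amino acids run short or the endoplasmic reticulum is stressed, the transcription factor ATF4 induces some of these genes together with enzymes of amino acid synthesis. Bulk RNA from a whole tissue cannot tell fewer cells of a type apart from less RNA per cell.

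Of the 34 carrier genes tested, 5 were higher and 3 were lower in Ethanol than in Vehicle animals, and 26 did not pass (edgeR's quasi-likelihood test, adjusted p under 0.05, with Benjamini-Hochberg adjustment over 17736 tested genes). The higher genes made up 14.7% of the tested carriers, where 9.07% of all genes tested were higher. The lower ones made up 8.82%, where 5.8% of all genes were lower. In either direction the share was 23.5% against 14.9%. The median log2 fold change (log2FC, Ethanol against Vehicle) of the carriers was -0.01, as was that of all genes tested, and 47.1% of carriers had a value above 0 against 47.7% of all genes. Without the 4 libraries low in Ttr, 8 carrier genes were called, the same 8.

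The higher genes were Slc7a3, Slc38a2, Slc1a2, Slc3a2 and Slc1a4, and the lower ones Slc43a3, Slc43a2 and Slc7a8. No single family held them all. The cationic carriers, the ASCT exchangers, the heavy chains, the glutamate carriers and the SLC38 family had 1 higher gene each. Among the light chains 1 of 6 tested was lower, and among the SLC43 family 2 of 3 were lower. For none of the 8 were the 12 Ethanol values wholly apart from the 12 Vehicle values, which happened with Ethanol higher for 0.124% and with Ethanol lower for 0.0507% of all genes tested.

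**Figure D1:**
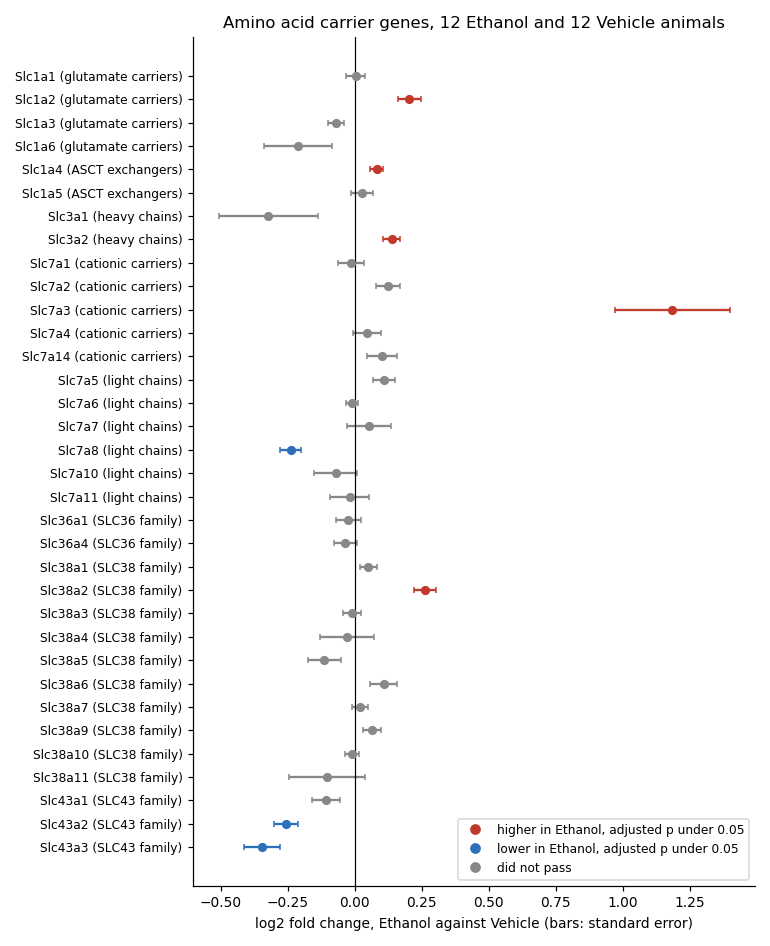
Log2FC of each tested carrier gene, Ethanol against Vehicle (12 animals each), with its standard error as bar and its role in brackets. Slc7a3 lies at 1.18, apart from the other 33 genes, which lie between -0.35 and 0.26.

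Because ATF4 and the oxidative stress factor NRF2 are known to act on several carriers, the promoters of the carrier genes were searched for the letters each of them is known to bind. Windows of 250 bases before and 50 bases after the transcription start were available from RefSeq (GRCm38.p6) for 31 of the 42 genes, 42 windows in all. The letters TGATGNAA, to which ATF4 binds with a C/EBP partner, were found on either strand in 4 of these windows (9.52%) and in 3.97% of all 32851 promoter windows. The NRF2 letters TGACNNNGC were found in 6 windows (14.3%) and in 12.4% of all windows. These are matches of letters and not shown binding sites, and some windows of 1 gene overlap and share a match. Sequence outside the windows was not searched, so a gene without a match here may have one elsewhere.

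The 4 stretches below are shown because they belong to carriers reported as ATF4 targets that were called higher or hold the ATF4 letters, with matches in capitals. Each is read in the direction of its gene, all 4 of which lie on the minus strand. Those of Slc7a11, Slc38a2 and Slc3a2 are the 100 bases just before the start, at chr3:50443614-50443713, chr15:96699729-96699828 and chr19:8713898-8713997. That of Slc1a4 is chr11:20332699-20332728 and spans its start.
Slc7a11: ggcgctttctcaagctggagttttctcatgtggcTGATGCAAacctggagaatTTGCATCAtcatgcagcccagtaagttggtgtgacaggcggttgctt
Slc1a4: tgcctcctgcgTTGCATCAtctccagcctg
Slc38a2: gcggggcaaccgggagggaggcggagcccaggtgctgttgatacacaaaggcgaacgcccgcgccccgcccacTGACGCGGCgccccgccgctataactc
Slc3a2: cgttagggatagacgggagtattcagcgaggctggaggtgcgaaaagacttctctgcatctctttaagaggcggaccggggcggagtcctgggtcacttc

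Slc7a11, the cystine and glutamate exchanger, has the ATF4 letters 66 and 47 bases before its start, once on each strand. In Slc1a4, an exchanger of serine and alanine, they begin 4 bases before the start. The match of Slc38a2, a sodium-coupled carrier of neutral amino acids, is to the NRF2 letters and begins 27 bases before the start. Slc3a2 had no match in its window. For 32 of the 42 windows the bases after the start were found near the beginning of a GENCODE transcript of the gene. That of Slc3a2 was not among them, so its start is less certain. Slc7a1, another carrier reported as an ATF4 target, has the NRF2 letters 11 bases before 1 of its starts. The other matches of the ATF4 letters were in 2 overlapping windows of Slc7a7. Slc7a3 and Slc7a5 had no window in the RefSeq table. Slc7a11, with the letters on both strands, did not pass the comparison of treatments (log2FC -0.02, SE 0.07, adjusted p = 0.901 from edgeR).

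The levels of the tested carriers, given as CPM per kilobase of the longest coding transcript in GENCODE so that genes can be set side by side, spanned 3 orders of magnitude. In Vehicle animals the glial glutamate carrier Slc1a3 stood highest at 359 CPM per kb. The large neutral amino acid exchanger Slc7a5 and its heavy chain Slc3a2 followed at 108 and 67.6 CPM per kb. Slc1a4, Slc38a2 and Slc38a1 lay close together at 48.5, 47.5 and 46.7. Slc7a3, the gene with the largest fold change, was one of the lowest of the tested carriers at 1.55 CPM per kb in Vehicle and 3.52 in Ethanol animals.

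**Figure D2:**
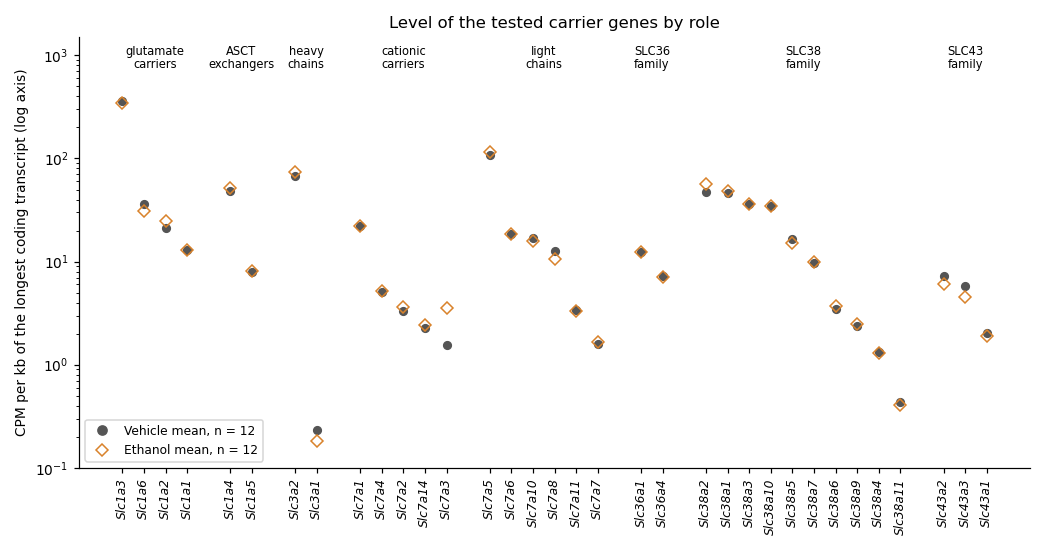
Mean level of each tested carrier gene in CPM per kb of its longest coding transcript (log axis), grouped by role, for 12 Vehicle (filled) and 12 Ethanol (open) animals. Slc1a3 is highest at 359 in Vehicle, most filled and open symbols touch, and those of Slc7a3 stand apart at 1.55 and 3.52.

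Of the 5 genes for glutamate carriers, which remove the transmitter after its release, 4 were tested and 1 was higher. Slc1a2, the GLT-1 carrier of astrocytes, lay between 223 and 284 CPM (median 246) in Vehicle animals. In Ethanol animals it lay between 241 and 325 CPM (median 287). The upper range was that of Ethanol, with 6 of 12 animals above the highest Vehicle animal and 11 of 12 above the Vehicle median. Its log2FC was 0.20 (SE 0.04, adjusted p = 0.00193 from edgeR), a rise of the mean from 248 ± 19.5 to 286 ± 21.5 CPM (SD, n = 12 each).

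Slc1a3, the GLAST carrier of Bergmann glia and other astrocytes, did not pass. It lay between 1393 and 1604 CPM (median 1494) in Vehicle and between 1319 and 1581 CPM (median 1399) in Ethanol animals. The ranges overlapped widely, although 10 of 12 Ethanol animals were under the Vehicle median, and the log2FC was -0.07 (SE 0.03, adjusted p = 0.129 from edgeR). Of the pair of astrocyte carriers only Slc1a2 was called, and the estimate for Slc1a3 was below 0 in all 39 alternative settings tried and passed in 1 of them (without Ethanol X4760, adjusted p = 0.0471). The carrier of Purkinje cells, Slc1a6, had a log2FC of -0.21 (SE 0.13, adjusted p = 0.284 from edgeR), with a coefficient of variation of 25.7% among Vehicle animals. Slc1a1, a mostly neuronal carrier of glutamate and cysteine, was at 0.00 (SE 0.04), and Slc1a7, the carrier of the retina, had too few counts.

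Markers of astrocytes moved in both directions. Of all genes tested, 9.07% were higher and 5.8% lower. Of 11 tested markers of astrocytes and Bergmann glia, 4 were higher and 2 lower (median log2FC 0.11, where that of all genes was -0.01). Gfap, the intermediate filament of reactive astrocytes, had a log2FC of 0.99 and Ndrg2, a marker of mature astrocytes, one of 0.17. Gdf10, a growth factor that marks Bergmann glia, was at -0.25. The summed level of the list was 3005 to 3577 CPM in Vehicle and 3537 to 4015 CPM in Ethanol animals. Its genes did not rise alike. Mean CPM in Vehicle and Ethanol animals was 325 and 647 for Gfap and 493 and 629 for Aqp4. It was 847 and 851 for Fabp7, and 315 and 297 for Aldh1l1. Of the 7 Purkinje cell markers 2 were lower and 5 did not pass, with a summed level of 1421 to 1742 CPM in Vehicle and 1320 to 1571 CPM in Ethanol animals. The part of either list in the values of Slc1a2 and Slc1a6 was not tested.

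Both ASCT exchangers, which trade small neutral amino acids across the membrane, were tested and 1 was higher. Slc1a4 (ASCT1) lay between 182 and 197 CPM (median 191) in Vehicle and between 189 and 218 CPM (median 200) in Ethanol animals. The difference was small against a narrow spread, with 7 of 12 Ethanol animals above the highest Vehicle animal. Its log2FC was 0.08 (SE 0.03, adjusted p = 0.0274 from edgeR), and its call was the least stable of the 8. It was lost in 11 of 39 alternative settings, among them upper-quartile scaling (adjusted p = 0.0761), no filter on low counts (0.0589), and leaving out Ethanol X4568 (0.0829), Ethanol X4681 (0.0566), Ethanol X4692 (0.0715), Vehicle X4695 (0.0553) or Vehicle X4762 (0.0665). Without run 1, 3, 4 or 6 its adjusted p was 0.0869, 0.093, 0.116 or 0.0537. The other 7 calls were kept in all 39 settings. Slc1a5 (ASCT2), which takes up glutamine, did not pass, at 19.6 to 24.3 CPM (median 22.3) in Vehicle and 20.3 to 26.3 CPM (median 22.6) in Ethanol animals and a log2FC of 0.03 (SE 0.04).

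Heavy chains anchor the exchangers of the SLC7 family in the membrane. Slc3a2, which encodes 4F2hc (CD98), was higher. It lay between 175 and 203 CPM (median 190) in Vehicle and between 184 and 230 CPM (median 213) in Ethanol animals. Of 12 Ethanol animals, 8 exceeded the highest Vehicle animal, while the lowest lay inside the Vehicle range. The log2FC was 0.14 (SE 0.03, adjusted p = 0.00323 from edgeR). Slc3a1 (rBAT), the heavy chain of the cystine exchanger of kidney and gut, was barely detected, at 0.286 to 0.782 CPM (median 0.493) in Vehicle and 0.232 to 0.721 CPM (median 0.401) in Ethanol animals, and did not pass with -0.32 (SE 0.19, adjusted p = 0.261 from edgeR). Its reads are shared with other genes in the authors' estimate, and Prepl overlaps it on the other strand.

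Of the 6 tested light chains, 1 was lower and 5 did not pass. Slc7a8 (LAT2), an exchanger of neutral amino acids, was the lower one. It lay between 47.2 and 55.4 CPM (median 51.5) in Vehicle and between 35.0 and 47.6 CPM (median 44.4) in Ethanol animals. The groups were almost apart, since 11 of 12 Ethanol animals were under the lowest Vehicle animal. Its log2FC was -0.24 (SE 0.04, adjusted p = 0.000168 from edgeR), a fall of the mean from 51.4 ± 2.53 to 43.5 ± 3.47 CPM (SD, n = 12 each).

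Slc7a5 (LAT1), the other exchanger of large neutral amino acids and the most abundant light chain per kb, did not pass. It lay between 336 and 407 CPM (median 379) in Vehicle and between 345 and 451 CPM (median 420) in Ethanol animals. Of the Ethanol animals 7 were above the highest Vehicle animal and 3 were under the Vehicle median. The log2FC was 0.11 (SE 0.04, adjusted p = 0.0798 from edgeR). It passed without Ethanol X4673 (adjusted p = 0.0374), without Ethanol X4674 (0.0255) and without run 2, to which both belong (0.00898, log2FC 0.16). None of the other light chains passed. Slc7a7 (y+LAT1, also of macrophages) was at 0.05 (SE 0.08), Slc7a6 (y+LAT2) at -0.01 (SE 0.02), Slc7a11 (xCT) at -0.02 (SE 0.07) and Slc7a10 (Asc-1, which exchanges D-serine) at -0.07 (SE 0.08). Slc7a9, Slc7a12, Slc7a13 and Slc7a15 had too few counts.

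Among the 5 cationic carriers, all tested, Slc7a3 alone was higher. Slc7a3 encodes CAT3, the arginine and lysine carrier of neurons, and had the largest fold change of all carriers. It lay between 3.30 and 5.23 CPM (median 4.16) in Vehicle animals. In Ethanol animals it ran from 3.99 to 18.7 CPM (median 8.41). Thus 10 of 12 Ethanol animals were above every Vehicle animal and 2 were inside the Vehicle range. The log2FC was 1.18 (SE 0.21, adjusted p = 0.000716 from edgeR), a mean rise from 4.26 ± 0.537 to 9.69 ± 4.88 CPM (SD, n = 12 each).

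The spread of Slc7a3 also differed between groups, with a coefficient of variation of 12.6% in Vehicle and 50.4% in Ethanol animals. Counting error alone gives 6.61% at the mean count of all 24 libraries, and more than this at the lower level of Vehicle animals. The highest Ethanol animals were X4760 with 18.7 CPM and X4758 with 16.5 CPM, both of run 5, and X4692 of run 4 with 15.8 CPM. The lowest were X4674 with 3.99 CPM and X4673 with 4.35 CPM, the pair of run 2.

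The other cationic carriers gave values that did not pass. Slc7a1 (CAT1), the most abundant of them, lay between 152 and 176 CPM (median 159) in Vehicle and between 119 and 177 CPM (median 164) in Ethanol animals, with a log2FC of -0.01 (SE 0.05, adjusted p = 0.888 from edgeR). Its lower end was that of Ethanol, with 4 animals under the lowest Vehicle animal. Slc7a2 (CAT2) was at 0.13 (SE 0.04, adjusted p = 0.0543 from edgeR). It did pass with limma-voom (0.0491), with DESeq2 (0.0398), with the runs as a block (0.0178), and without Ethanol X4673 (0.0156), Vehicle X4695 (0.0192), Vehicle X4768 (0.0433) or run 4 (0.0282). Slc7a4 and the lysosomal Slc7a14 were at 0.04 (SE 0.05) and 0.10 (SE 0.06).

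**Figure D3:**
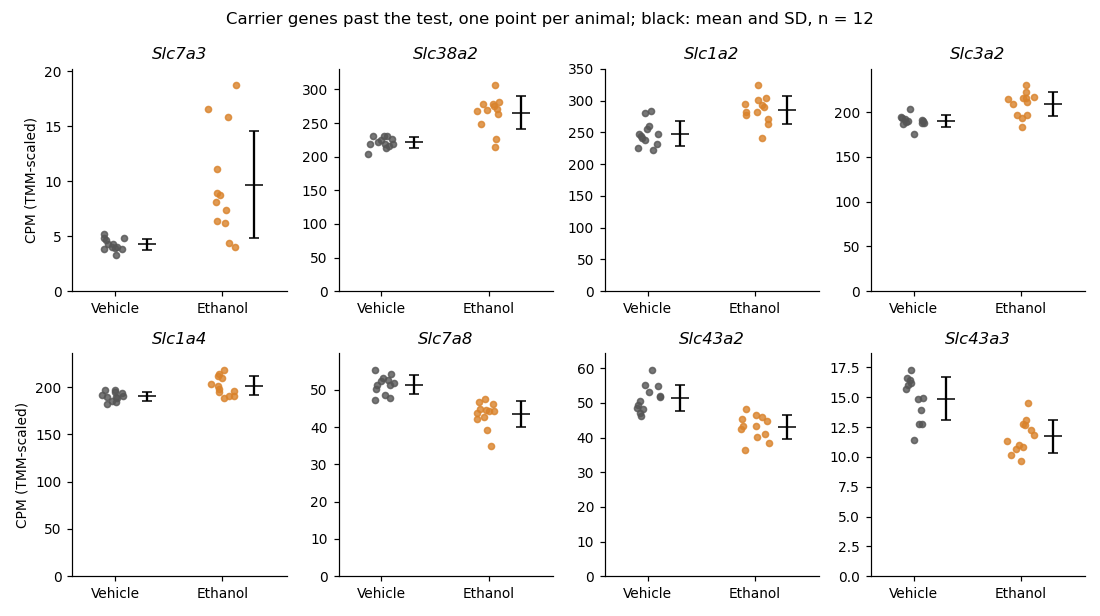
CPM of the 8 called carrier genes in each animal, on axes that start at 0, with the mean and SD of 12 animals beside the points. Slc7a3 shows a tight Vehicle group under 5.23 and Ethanol animals spread up to 18.7, and Slc7a8, Slc43a2 and Slc43a3 sit lower in Ethanol.

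The SLC38 family takes up glutamine and other neutral amino acids, and of its 10 tested genes 1 was higher. Slc38a2 (SNAT2), which cells are known to induce when deprived of amino acids, had the smallest adjusted p of all carriers. It lay between 205 and 231 CPM (median 221) in Vehicle and between 215 and 307 CPM (median 271) in Ethanol animals. Of the 12 Ethanol animals 10 were above the highest Vehicle animal. Its log2FC was 0.26 (SE 0.04, adjusted p = 0.000109 from edgeR), with means of 221 ± 7.93 and 265 ± 24.9 CPM (SD, n = 12 each).

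Slc38a1 (SNAT1), which has the highest CPM of the family, did not pass. It lay between 320 and 376 CPM (median 331) in Vehicle and between 307 and 376 CPM (median 352) in Ethanol animals, that is, a log2FC of 0.05 (SE 0.03, adjusted p = 0.308 from edgeR). Slc38a3, the glutamine carrier of astrocytes, was at -0.01 (SE 0.03). Slc38a9, the lysosomal arginine sensor of the mTORC1 kinase complex, was at 0.06 (SE 0.03, adjusted p = 0.204 from edgeR) and Slc38a7, the lysosomal exporter of glutamine and asparagine, at 0.02 (SE 0.03). Slc38a6 was at 0.11 (SE 0.05, adjusted p = 0.151, and 0.0172 without run 1) and Slc38a5 at -0.11 (SE 0.06, adjusted p = 0.224), both from edgeR. The remaining genes gave -0.03 for Slc38a4, -0.01 for Slc38a10 and -0.10 for Slc38a11. Slc38a8 had too few counts.

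The SLC43 family carries large neutral amino acids by facilitated diffusion, except Slc43a3, which is known as a carrier of purine nucleobases and is here by its name. Slc43a2 (LAT4) was lower. It lay between 46.2 and 59.5 CPM (median 51.2) in Vehicle and between 36.4 and 48.2 CPM (median 43.3) in Ethanol animals. Of 12 Ethanol animals 10 were under the lowest Vehicle animal. The log2FC was -0.26 (SE 0.04, adjusted p = 0.000266 from edgeR). Its counts are not whole numbers in any library, so its reads are in part shared with another gene in the authors' estimate, and Mir3971 and Gm45606 overlap it.

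Slc43a3 was lower as well. It lay between 11.4 and 17.3 CPM (median 15.3) in Vehicle and between 9.68 and 14.5 CPM (median 11.6) in Ethanol animals. All 12 Ethanol animals were under the Vehicle median, and 6 were under the lowest Vehicle animal. The log2FC was -0.35 (SE 0.07, adjusted p = 0.00106 from edgeR). Slc43a1 (LAT3) did not pass, at 5.43 to 6.99 CPM (median 6.34) in Vehicle and 5.13 to 6.25 CPM (median 5.98) in Ethanol animals, although 12 of 12 Ethanol animals were under the Vehicle median (log2FC -0.11, SE 0.05, adjusted p = 0.169 from edgeR).

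Among markers of endothelium, the cells that line blood vessels, 4 of 10 tested were lower in Ethanol animals and 6 did not pass, with none higher (median log2FC -0.17). The share of all genes tested that were lower was 5.8%. Cdh5, the cadherin of endothelial junctions, was at -0.24, Tek, the angiopoietin receptor, at -0.21 and Pecam1 at -0.16. Their summed level was 398 to 450 CPM in Vehicle and 345 to 408 CPM in Ethanol animals. Of 6 pericyte markers, 1 was lower, Rgs5 at -0.23. Of 7 markers of meninges and fibroblasts 3 were lower, among them the collagen gene Col3a1 at -0.33. The part of these lists in the values of Slc43a2, Slc43a3 and Slc7a8 was not tested.

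The SLC36 family moves small amino acids together with protons, out of the lysosome among other sites. Neither of its 2 tested genes passed. Slc36a1 (PAT1) lay between 61.4 and 77.2 CPM (median 64.2) in Vehicle and between 55.2 and 75.5 CPM (median 65.7) in Ethanol animals, with a log2FC of -0.02 (SE 0.05). Slc36a4 was at -0.04 (SE 0.04). Slc36a2 and Slc36a3 had too few counts.

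The 8 genes left out by the filter held few reads over all 24 libraries together. Slc36a2 had 242 counts, Slc38a8 had 121, Slc1a7 had 79, Slc7a15 had 33, Slc7a9 had 27, Slc7a13 had 10, Slc36a3 had 2 and Slc7a12 had 0. They were not tested.

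Within the 6 runs of animal numbers, 2 Ethanol animals were set against 2 Vehicle animals. Slc38a2 and Slc1a2 were higher in Ethanol in 6 of 6 runs, and Slc7a8, Slc43a2 and Slc43a3 were lower in 6 of 6. Slc3a2, Slc1a4 and Slc7a3 were higher in 5 of 6 runs, and for all of them the exception was run 2, with log2 differences of -0.02, -0.03 and -0.09. The difference for Slc7a3 ranged from there to 1.96 in run 5. A test of whether the effect differed between runs gave p = 0.000962 for Slc7a3 and an adjusted p of 0.215 (edgeR, treatment by run). No carrier passed that test after adjustment, with edgeR or with limma-trend, where 0.0677% of all genes passed with edgeR. At an unadjusted p under 0.05 there were 7 carriers with each tool (20.6% of those tested), where 1064 of all genes (6%) met this with edgeR and 1093 (6.16%) with limma-trend. With the runs as a block, all 8 calls were kept and Slc7a2 joined them.

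**Figure D4:**
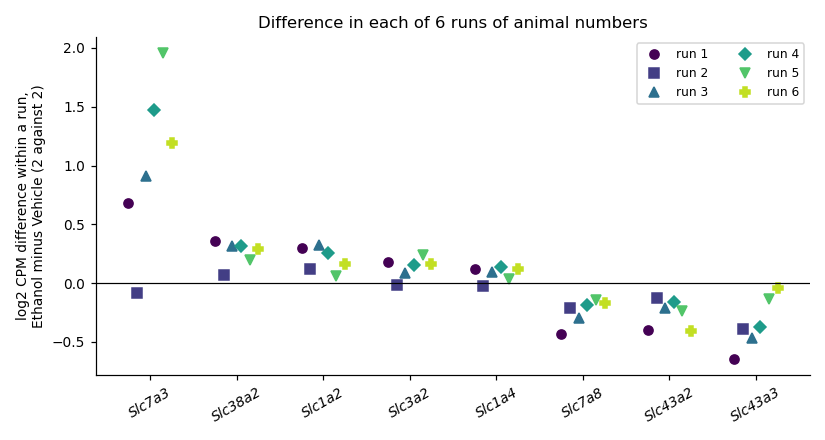
Difference in log2 CPM between 2 Ethanol and 2 Vehicle animals within each of 6 runs of animal numbers, for the 8 called carrier genes. Slc38a2 and Slc1a2 lie above 0 in all 6 runs, the 3 lower genes lie below 0 in all 6, and Slc7a3 runs from -0.09 in run 2 to 1.96 in run 5.

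The carriers reported as ATF4 targets were taken as a list of 8 (Slc1a4, Slc1a5, Slc3a2, Slc7a1, Slc7a3, Slc7a5, Slc7a11 and Slc38a2). Of these 4 were higher and 4 did not pass, where 9.07% of all genes tested were higher. Their median log2FC was 0.09. So Slc7a3, Slc38a2, Slc3a2 and Slc1a4 were called while Slc7a1, Slc7a11 and Slc1a5 had estimates between -0.02 and 0.03. Other genes of the ATF4 response went further. Of 20 such genes outside the carriers, 18 were higher and none lower, with a median log2FC of 0.51. Which genes count depends on the list, and both lists were chosen with earlier results of these data known. Ppp1r15a, an inducible gene counted below with the GCN2 arm and not among the 20, was lower (log2FC -0.20, SE 0.05, adjusted p = 0.0084 from edgeR). The transcription factor Cebpg had 0.55 (SE 0.05, adjusted p = 4.36e-08), the mitochondrial folate enzyme Mthfd2 had 0.84 (SE 0.09, adjusted p = 5.09e-06) and the glutathione-degrading enzyme Chac1 had 1.83 (SE 0.23, adjusted p = 3.05e-05), all from edgeR.

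To set the carriers beside this response animal by animal, the 20 genes outside the carriers were averaged as z-scores of log2 CPM over all 24 animals. The score ran from -0.948 to -0.421 (median -0.667) in Vehicle and from -0.464 to 1.499 (median 0.721) in Ethanol animals. It thus had a wide range in Ethanol and a narrow one in Vehicle animals. All Ethanol animals but X4674 (-0.464) scored above every Vehicle animal, so correlations were taken within each treatment over 12 animals. Permutation p-values (100000 resamples, two-sided) were adjusted over 16 relations. Animals were shuffled without regard to runs, here and for the heavy chain below. These p-values therefore take animals of the same run as independent.

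Among Ethanol animals Slc7a3 followed the score, with Pearson's r = 0.907 (adjusted p = 0.00112 by permutation) and Spearman's rho = 0.881 (adjusted p = 0.00256). Without the 2 animals farthest from the median score r was 0.856, and with each run's mean removed it was 0.905. The 3 Ethanol animals with the lowest scores were X4674, X4766 and X4673, and they held 3 of the 4 lowest values of Slc7a3. Slc3a2 had r = 0.870 (permutation adjusted p = 0.00176) and rho = 0.930 (adjusted p = 0.00048), with r of 0.771 (adjusted p = 0.0517) without the 2 farthest animals and 0.924 with run means removed. Slc7a5, which did not pass the comparison of treatments, had r = 0.825 (permutation adjusted p = 0.00459) and rho = 0.748 (adjusted p = 0.0356), with r of 0.7995 without the 2 farthest and 0.951 with run means removed.

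Slc38a2 did not show this relation. Its r among Ethanol animals was 0.192 (permutation adjusted p = 0.758) and its rho 0.308, although it was one of the genes called higher. Single animals went both ways. Ethanol X4760, with the second highest score and the highest Slc7a3, had the second lowest Slc38a2 value at 227 CPM. Ethanol X4674, X4766 and X4673, with the lowest scores, were all under the Ethanol median of Slc38a2, and X4673 had the lowest value. Ethanol X4692, with the highest score, was above that median. The r of Slc7a1 was 0.599 (permutation adjusted p = 0.112), of Slc1a4 0.433, of Slc7a11 0.416 and of Slc1a5 -0.0249, and none of these passed. With run means removed, r was 0.232 for Slc7a1, 0.806 for Slc1a4, 0.219 for Slc7a11 and -0.659 for Slc1a5. That of Slc38a2 was then -0.341. Values with run means removed were not tested. Among Vehicle animals no carrier passed, and the highest r was 0.699 for Slc3a2 (permutation adjusted p = 0.0608), which fell to 0.0542 without the 2 farthest animals. Without the libraries low in Ttr, Slc7a5 passed among Vehicle animals (r = 0.756, permutation adjusted p = 0.0476, n = 10), against 0.596 (adjusted p = 0.112) with all 12. Whether r differed between treatments was not tested.

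**Figure D5:**
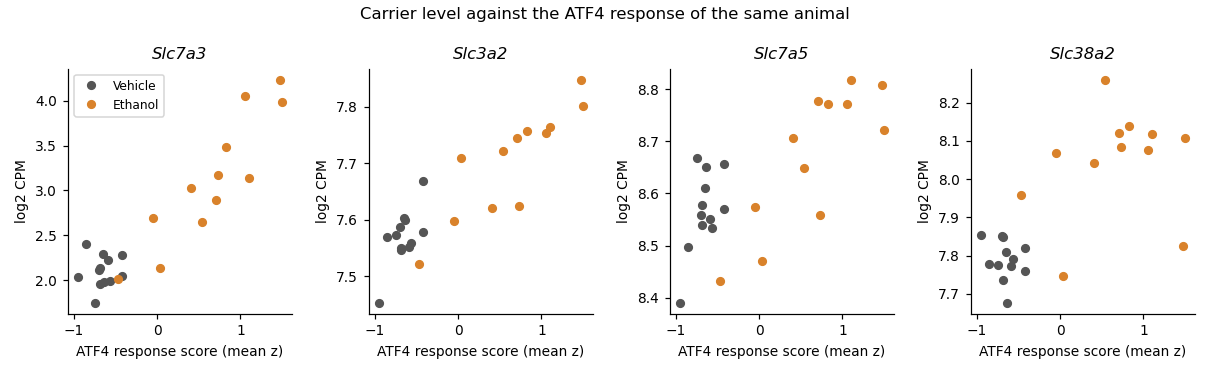
Log2 CPM of 4 carrier genes against the mean z-score of 20 ATF4 response genes, 1 point per animal, for 12 Vehicle and 12 Ethanol animals. Among Ethanol animals Slc7a3, Slc3a2 and Slc7a5 rise with the score (r = 0.907, 0.870 and 0.825) and Slc38a2 does not show it (r = 0.192).

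A heavy chain and its light chains work as pairs, so Slc3a2 was also set against each of the 6 tested light chains within each treatment, 12 relations in all. Slc7a5 followed Slc3a2 in Vehicle animals (r = 0.817, permutation adjusted p = 0.0218) but not by rank (rho = 0.657, adjusted p = 0.144) and in Ethanol animals by both measures (r = 0.766, permutation adjusted p = 0.0218, rho = 0.811, adjusted p = 0.0240). With run means removed these were 0.827 and 0.793. Without the 2 animals farthest from the median of Slc3a2 they were 0.499 and 0.579 (permutation adjusted p = 0.857 for each). The rho values there were 0.467 in Vehicle and 0.733 in Ethanol animals (permutation adjusted p = 0.741 and 0.241). Leaving out those animals also narrows the range of Slc3a2, so these values cannot tell whether the relation depends on them. Without the libraries low in Ttr r was 0.919 in Vehicle (permutation adjusted p = 0.00384) and 0.748 in Ethanol animals (0.0517, no longer past the threshold). The relation with Slc7a10 in Vehicle animals was negative (r = -0.745, permutation adjusted p = 0.0329, rho = -0.413 with adjusted p = 0.629). Without the 2 farthest animals its r was -0.0618, and the same narrowing of range applies there. With run means removed it was -0.686. Without the libraries low in Ttr it was -0.837 (permutation adjusted p = 0.0380, rho = -0.564 with adjusted p = 0.395). The 9 other relations did not pass. Slc7a8, the light chain that was lower, had r of -0.0711 in Vehicle and -0.239 in Ethanol animals.

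Genes that sense amino acids were counted next, where 9.07% of all genes tested were higher and 5.8% lower. Of 12 genes of the GCN2 arm, in which a kinase that binds uncharged tRNA leads to translation of ATF4, 2 were higher and 1 lower (median log2FC 0.02). Atf4 itself was at 0.22 (SE 0.05, adjusted p = 0.00264 from edgeR). Ppp1r15b, a subunit of the phosphatase that ends this response, was at 0.14, and Ppp1r15a, its inducible counterpart, at -0.20. Of 26 tested genes of amino acid sensing by mTORC1, 4 were higher and 1 lower (median 0.01). Flcn, the folliculin gene, was at 0.33, the leucine sensor Sesn2, also in the ATF4 list, at 0.50 and the scaffold gene Lamtor3 at 0.17.

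Enzymes that use what the carriers bring in were counted as well, beside the same shares of all genes. Of 15 genes of glutamate and glutamine metabolism, 4 were higher and 1 lower (median 0.11). Gpt2, the mitochondrial alanine transaminase, was at 0.32, Aldh18a1, which makes the precursor of proline, at 0.22 and Asns, the asparagine synthetase that is also in the ATF4 list, at 0.51. In cystine and glutathione metabolism 2 of 13 genes were higher and none lower (median -0.02), namely Chac1, again of the ATF4 list, and Cbs, the first enzyme from homocysteine to cysteine, at 0.28. Of 18 tested amino acid carriers of other families, 1 was higher and 1 lower (median -0.05). These were Slc6a17, a carrier of synaptic vesicles, at 0.12 and Slc25a12, the mitochondrial aspartate and glutamate carrier, at -0.08.

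Markers of the remaining cell types moved as follows, where 9.07% of all genes tested were higher and 5.8% lower. Of 8 granule cell markers 1 was higher and 1 lower, and of 10 oligodendrocyte markers 1 was higher. Of 9 microglia markers 4 were higher and 1 lower, with a summed level of 175 to 244 CPM in Vehicle and 195 to 295 CPM in Ethanol animals. None of 5 interneuron, 10 choroid plexus and 5 erythroid markers passed. The most abundant of these, Gad1, Ttr and Hbb-bs, had log2FCs of 0.03, -0.27 and -0.55. The summed level of the choroid plexus markers ran from 125 to 5977 CPM in Vehicle and from 137 to 5993 CPM in Ethanol animals, and that of the erythroid markers from 62.8 to 251 CPM and from 23.5 to 293 CPM. No marker on any of these lists was at 0 in all libraries.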

How the data were processed

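Poly(A) RNA libraries of 24 cerebella (12 Ethanol, 12 Vehicle, by the labels) were prepared with Illumina's TruSeq mRNA kit for paired-end sequencing. The authors ran nf-core/rnaseq on the reads and deposited an estimated count for each gene. STAR, Salmon, limma and GRCm39 appear in the submitters' processing notes without versions. For the annotation release and for strandedness in counting, nothing is given in the sources used here. Labels and the study's methods name different homogenizers and RNA kits. Of the values 10.9% were further than 0.01 from a whole number, and counts were rounded first. Reads shared between similar genes depend on how Salmon split them, which concerns Slc7a7, Slc3a1, Slc7a11, Slc7a10 and Slc43a2 in all libraries and Slc38a10, Slc7a4, Slc1a1, Slc36a1, Slc36a2 and Slc38a1 in some. Overlapping genes were read from GENCODE by name.

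Genes were filtered with filterByExpr (17736 left), given TMM factors (0.982 to 1.01) and compared by the quasi-likelihood test of edgeR 4.0.16 under R 4.3.3 (robust glmQLFit, then glmQLFTest on 22 residual degrees of freedom), with Benjamini-Hochberg adjustment over all genes. Standard errors follow from the F statistic (absolute log2FC over its square root). CPM are on TMM-scaled library sizes, and log2 CPM used a prior count of 2. Correlations used Python 3.11.15 (pandas 2.3.3, numpy 2.4.6, scipy 1.17.1), and figures used matplotlib 3.10.9. The study's own test was limma on log2 CPM with TMM. The test was checked on simulated counts.

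Depth was 26982510 to 38804909 counts per library. No pair of libraries was a repeat of another, since the lowest mean chi-square of 276 pairs was 4.95 per gene, where sampling noise gives 1. Each library is a separate animal by label. All carrier genes are accounted for. Each gene past the test is named with its lowest, median and highest value, and so is the most abundant of the others in each role. Up to 3 genes of smallest p were named per pathway list, or the most abundant gene where none passed, and examples from the marker lists were drawn from these. The carriers, the gene lists and the tests were chosen with earlier results of these data known. The list genes Samtor and Sept4 were not matched by symbol and were not used.

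Alternatives were limma-trend and limma-voom (limma 3.58.1), DESeq2 1.42.0, upper-quartile or RLE factors, either no filter or one of 1 CPM in 12 libraries, a block for the runs of animal numbers, leaving out each animal, each run and the 4 libraries whose Ttr was under 4 on the log2 CPM scale, and, for correlations, leaving out the 2 farthest animals or 2 genes of the score. The test of runs with limma-trend and the removal of run means from correlations were chosen after seeing the data.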

Additional observations from a re-analysis of the deposited data

How the results depend on the processing

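Over 39 alternative settings for the comparison of treatments, 7 of the 8 calls were kept throughout. That of Slc1a4 was lost in 11, and Slc7a2, Slc7a5, Slc1a3 and Slc38a6 passed in 7, 3, 1 and 1. Leaving out each animal in turn gave 4 to 7 higher and 3 to 4 lower carrier genes. The number of all genes that were lower was 1028 and fell to 662 with no filter on low counts, to 612 when the 4 Ttr-low libraries were left out, and to 616, 612 and 499 when runs 1, 3 and 4 were. The cause was not tested, although these settings other than the first also hold fewer animals.

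Estimates near 0 that did not pass changed sign in some settings. That of Slc1a1 was -0.0100 with upper-quartile factors, -0.0285 and -0.0108 without runs 3 and 4, and -0.0150 to 0.0138 with each animal left out. That of Slc1a5 was -0.00669 without run 5 (-0.000815 to 0.0349 with each animal left out), and that of Slc38a4 was 0.0338 and 0.00177 without runs 3 and 4 (-0.0859 to 0.000254). That of Slc7a1 was 0.0126 and 0.0263 without runs 1 and 2 and 0.00376 once Ttr-low libraries were left out (-0.0327 to 0.0144), that of Slc7a11 was 0.0273 without run 2 (-0.0532 to 0.00746), and that of Slc7a7 was -0.0409 without run 5 (-0.0190 to 0.0733). Without run 1 Slc36a1 was at 0.0124, Slc38a3 at 0.00611 and Slc7a10 at 0.00735, without run 3 Slc7a6 was at 0.00241, without run 4 Slc38a3 was at 0.0145, and without the libraries low in Ttr Slc38a11 was at 0.00654.

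Of the correlations of Slc3a2 with its light chains 3 passed, and 0 did without the 2 farthest animals (10 left per treatment). Correlations that did not pass and changed sign there were those of Slc3a2 with Slc7a8 in Vehicle (0.290) and Ethanol (0.0605) and with Slc7a6 in Ethanol animals (0.0303), and those of the ATF4 score with Slc1a5 in Vehicle (-0.383) and Ethanol (0.246) and with Slc38a2 in Vehicle animals (0.0834). Without the libraries low in Ttr the score gave -0.104 with Slc7a3 in Vehicle and 0.0794 with Slc1a5 in Ethanol animals. Without those libraries the relation of Slc3a2 with Slc7a5 in Ethanol animals no longer passed (0.748), and that of the score with Slc7a5 in Vehicle animals passed (0.756). The labels give the groups no shared replicate numbers, so the only block was that of the runs, which added Slc7a2 (adjusted p = 0.0178) and changed no other call. Low counts kept 8 genes out of the test, and counting error covers reads and not animals.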
